A study of Mus musculus with 4 samples.

Results

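The genes examined were Mecom, Prdm16, Hlf, Meis1, Hmga2 and Nkx2-3, 6 regulators tied to the self-renewal of hematopoietic stem cells (HSCs), the cells at the root of all blood lineages. Every peak of open chromatin that overlapped the annotated body of one of these genes, extended by 50 kb on each side, was taken as a member. This gave 70 of the 37887 peaks of the WT list and 73 of the 37615 peaks of the KO list on the 19 autosomes and X. Peaks of the lists that overlapped by at least 1 bp were merged into regions, of which 86 of 45475 (0.189%) lay at the 6 genes.

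Open chromatin was mapped by ATAC-seq, a method that cuts and tags open DNA with a transposase, in HSCs sorted from the bone marrow of adult C57BL/6 mice, 5000 cells per sample. Med23, the gene of a subunit of the Mediator complex that links transcription factors to RNA polymerase II, was floxed in all mice (Med23floxp/flowp). The KO mice also carried Mx1-cre, an interferon-inducible driver that is not restricted to HSCs and that was induced with poly(I:C). WT mice carried no cre. The study's blood counts came from WT and KO mice that had both been given poly(I:C). Whether the WT mice of the ATAC-seq samples received it is not stated in the study's methods. The labels name 2 samples per genotype, and those of both samples name the same peak list, so 1 WT list was compared with 1 KO list. There was thus no replicate error to set a difference against, and no test was made. It is not stated if the reads of both samples went into their list. The sort gate is LSKsCD150+CD34-CD48- in the labels and CD150+CD48- LSK in the study's methods. Because the cells were measured in bulk, fewer cells with an open region and less opening per cell cannot be told apart.

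The depth of the lists is not given in reads, but the deposited fold enrichment and -log10 p of each peak fix the whole-number pileup at its summit, that is, the number of extended reads stacked on the summit base. Over all peaks the median pileup was 18 (WT) and 19 (KO) reads, and the genome-wide background was 1.19 and 1.13 reads. Med23 had 1 peak in each list, at its start, with a pileup of 64 in WT and 85 in KO. A peak at the start does not check the deletion, because accessibility there can remain after an exon is lost. Of 7 stem cell markers, 3 had a promoter peak in each list (Fgd5, Kit and Tek), whereas Procr, Hoxb5, Slamf1 and Ly6a had none in either. Of 8 granulocyte and monocyte markers, 3 had a weak promoter peak in WT (S100a8, S100a9 and Ltf, pileups 9 to 11) and 0 had one in KO. The others, Elane, Mpo, Csf1r, Ly6c2 and Camp, had none in either list. Promoter peaks were also present in both lists at 3 of 5 B cell genes (Pax5, Ebf1 and Vpreb1, but not Cd79a or Ms4a1), at 3 of 6 erythroid genes, and at 3 of 4 megakaryocyte genes in WT and 4 of 4 in KO. Of 6 T cell genes, 1 had a promoter peak in WT and 2 had one in KO. The part of other cells in the values at the 6 genes was not tested.

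Long-lived HSCs divide rarely and keep a transcription factor network that is shut down as their progeny commit to a lineage. Mecom (which encodes Evi1 and the longer Mds1-Evi1 form) and Prdm16 encode related zinc finger proteins, the long forms of which carry a PR domain. Hlf encodes a PAR bZIP factor and Meis1 a TALE homeodomain factor that binds DNA with Hox partners. Hmga2 encodes a chromatin protein that binds AT-rich DNA and is known for its high level in fetal HSCs, and Nkx2-3 encodes an NK2 homeodomain factor.

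The sequences of 11 regions are shown as 200 bp centred on the summit of the list with the higher pileup, on the plus strand of mm10 (GRCm38.p6, RefSeq). Capitals mark matches, on either strand, to the motifs of GATA factors (AGATAA), ETS factors (CCGGAAG), PU1 (GAGGAAG), RUNX factors (TGTGGT), E-box proteins (CAGCTG), MEIS factors (TGACAG), PAR bZIP factors (TTACGTA), AP1 (TGACTCA), CTCF (AGGGGGC) and NKX2 factors (CACTTAA). A match is a description of the letters and not a bound site. The first 6 are the strongest region away from a promoter at each gene, by summed pileup.
Mecom intron, chr3:30515082-30515281: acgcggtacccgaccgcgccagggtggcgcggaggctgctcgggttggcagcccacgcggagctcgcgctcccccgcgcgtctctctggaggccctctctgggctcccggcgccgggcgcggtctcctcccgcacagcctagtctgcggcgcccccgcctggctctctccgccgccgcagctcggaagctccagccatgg
Prdm16 intron, chr4:154541716-154541915: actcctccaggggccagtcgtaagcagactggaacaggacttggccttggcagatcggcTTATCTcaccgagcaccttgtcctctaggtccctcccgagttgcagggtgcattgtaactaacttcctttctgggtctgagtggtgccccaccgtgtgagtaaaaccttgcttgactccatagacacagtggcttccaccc
Hlf upstream, chr11:90417964-90418163: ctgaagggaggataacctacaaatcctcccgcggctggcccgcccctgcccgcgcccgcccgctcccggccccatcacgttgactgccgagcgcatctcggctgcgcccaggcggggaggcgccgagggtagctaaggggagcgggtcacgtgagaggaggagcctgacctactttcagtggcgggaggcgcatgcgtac
Meis1 intron, chr11:18970027-18970226: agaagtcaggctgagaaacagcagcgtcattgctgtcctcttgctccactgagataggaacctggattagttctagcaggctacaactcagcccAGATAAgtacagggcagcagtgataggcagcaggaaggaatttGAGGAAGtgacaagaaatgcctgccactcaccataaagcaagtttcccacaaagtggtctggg
Hmga2 intron, chr10:120433007-120433206: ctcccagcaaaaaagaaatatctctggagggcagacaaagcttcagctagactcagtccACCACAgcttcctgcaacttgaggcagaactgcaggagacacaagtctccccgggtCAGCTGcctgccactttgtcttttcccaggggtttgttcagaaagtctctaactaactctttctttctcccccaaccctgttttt
Nkx2-3 upstream, chr19:43599866-43600065: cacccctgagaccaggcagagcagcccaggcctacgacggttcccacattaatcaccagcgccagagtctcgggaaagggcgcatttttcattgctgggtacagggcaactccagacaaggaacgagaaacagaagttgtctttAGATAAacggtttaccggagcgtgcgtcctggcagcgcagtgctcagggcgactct
The next 3 had a pileup at least 1.5-fold lower in KO, relative to the median of all regions, and the last 2 one at least 1.5-fold higher.
Hlf downstream, chr11:90335020-90335219: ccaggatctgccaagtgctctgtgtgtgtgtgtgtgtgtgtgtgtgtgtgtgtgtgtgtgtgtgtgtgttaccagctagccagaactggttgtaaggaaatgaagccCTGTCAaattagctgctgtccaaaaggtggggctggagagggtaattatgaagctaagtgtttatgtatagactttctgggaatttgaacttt
Mecom intron, lower in KO, chr3:30456025-30456224: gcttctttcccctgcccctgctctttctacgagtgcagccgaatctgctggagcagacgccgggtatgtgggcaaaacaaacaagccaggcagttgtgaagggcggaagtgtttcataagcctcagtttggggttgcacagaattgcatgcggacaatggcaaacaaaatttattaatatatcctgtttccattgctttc
Meis1 intron, lower in KO, chr11:18948964-18949163: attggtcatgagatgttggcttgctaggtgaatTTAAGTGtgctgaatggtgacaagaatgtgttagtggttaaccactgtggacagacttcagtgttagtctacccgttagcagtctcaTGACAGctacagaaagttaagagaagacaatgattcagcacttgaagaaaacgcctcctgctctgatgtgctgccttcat
Prdm16 intron, higher in KO, chr4:154497142-154497341: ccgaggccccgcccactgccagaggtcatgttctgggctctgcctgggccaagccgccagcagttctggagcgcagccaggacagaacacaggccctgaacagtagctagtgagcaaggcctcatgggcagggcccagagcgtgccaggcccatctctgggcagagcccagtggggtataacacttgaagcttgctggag
Hlf intron, higher in KO, chr11:90347903-90348102: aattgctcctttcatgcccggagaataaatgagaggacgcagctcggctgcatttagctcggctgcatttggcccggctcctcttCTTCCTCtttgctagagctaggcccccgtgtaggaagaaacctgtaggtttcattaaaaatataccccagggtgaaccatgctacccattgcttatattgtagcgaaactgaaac

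The strongest Meis1 region holds a GATA match and a PU1 match, whereas the strongest Mecom and Hlf regions are rich in G and C (77% and 70%) and hold no match to any of the 10 motifs. Over all member summits, AP1 was matched in 0 of 70 WT windows and 0 of 73 KO windows, against 5.99% and 6.15% of all windows of each list. E-box matches stood in 3 WT and 5 KO windows (4.29% and 6.85%), against 13.7% and 14% of all. ETS matches stood in 1 WT and 2 KO windows (1.43% and 2.74%), against 5.93% and 6.12%. NKX2 was the motif furthest above its share of all windows as a ratio, in both lists, with 4 WT and 5 KO windows (5.71% and 6.85%) against 1.72% and 1.76%. MEIS stood in 14 WT windows (20%, against 13.6% of all) and 10 KO windows (13.7%, against 13.9%). GATA matches stood in 7 and 8 windows (10% and 11%, against 8.56% and 8.44%), PU1 in 12 and 14 (17.1% and 19.2%, against 16% and 17.1%), RUNX in 11 and 12 (15.7% and 16.4%, against 20% and 20.1%) and CTCF in 4 and 4 (5.71% and 5.48%, against 7.79% and 7.74%). PAR bZIP, the kind of site that Hlf itself is known to bind, was matched in 0 windows of either list, against 0.311% and 0.3%. These shares rest on few windows, and regions in both lists are counted once in each. The median GC content of the windows was 50.5% in WT and 51% in KO at the 6 genes and 53.5% and 53% over all peaks.

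Most of the open chromatin at the 6 genes was found in both genotypes. Of the 86 regions, 54 (62.8%, 95% Wilson interval 52.2% to 72.3%) were in both lists, against 64.8% of all regions. A further 15 (17.4%, 10.9% to 26.8%) were in the WT list only, against a background of 18.1% of all regions. The remaining 17 (19.8%, 12.7% to 29.4%) were in the KO list only, against 17.2%. In all, 32 regions (37.2%) were in 1 list only, against 35.2%, so both shares lay near the background. Among the stronger peaks the share was further from it: with only peaks of a -log10 q of at least 10, 16 of 30 regions (53.3%, 36.1% to 69.8%) were in 1 list only, against 30.7% of all, of which 4 (13.3%) were in WT only, against 8.31%, and 12 (40%) in KO only, against 22.4%. Each of these 16 regions had a peak under the limit in the other list. The intervals cover counting error only, and regions of 1 gene share their list and are not replicates.

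**Figure D1:**
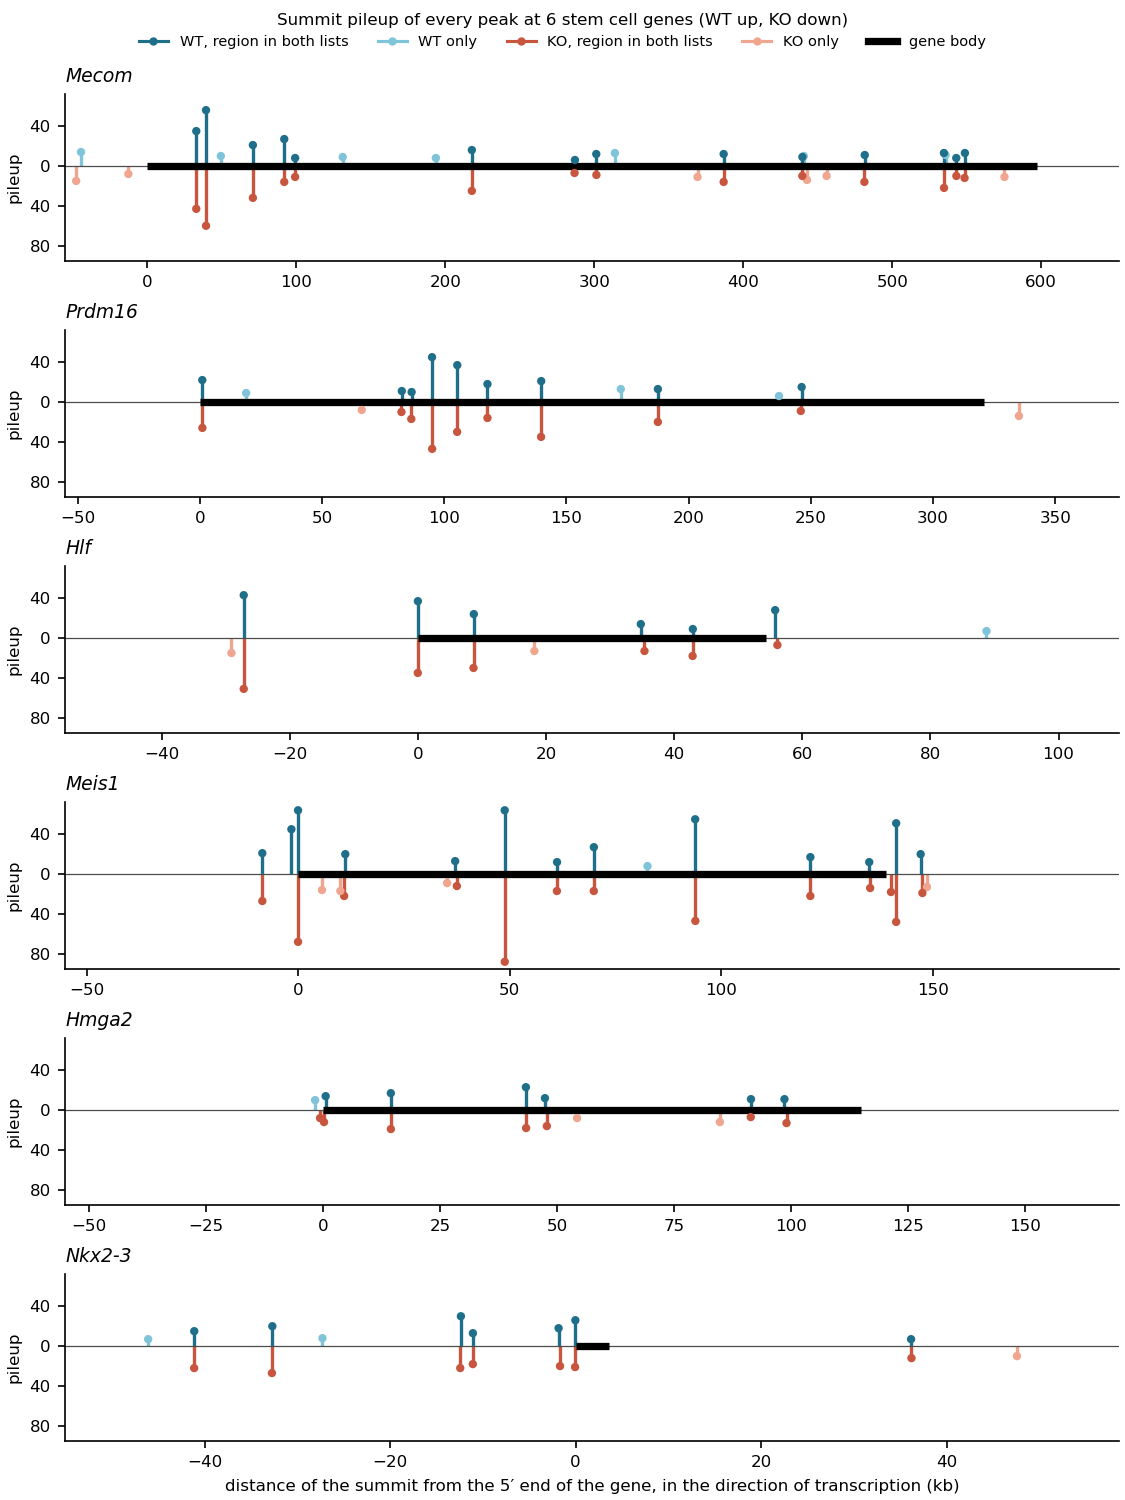
Every peak at the 6 genes, 1 panel per gene: the x axis is the distance of the summit from the 5′ end of the gene in kb, in the direction of transcription, and the y axis is the summit pileup in reads, upward for the 70 WT peaks and downward for the 73 KO peaks. Dark stems are regions in both lists, pale stems are the 15 WT-only and 17 KO-only regions, the black bar is the gene body, and the tallest stem is the Meis1 intronic region with 64 in WT and 88 in KO.

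The regions found in 1 list were weak. The 15 WT-only peaks had pileups of 6 to 14 (median 9) and the 17 KO-only peaks 8 to 17 (median 12), whereas regions in both lists had medians of 17 (WT) and 18.5 (KO). This was not particular to the 6 genes. Over all regions the medians were 10 (WT-only) and 11 (KO-only), against 22 (WT) and 23 (KO) for regions in both lists. Compared with all peaks, the members were weak as well. The median fold enrichment over local background was 4.8 in WT and 5.42 in KO, against 6.38 and 7.44 over all peaks. The strongest member peak was in an intron of Meis1 in the KO list, with a fold enrichment of 15.4.

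Regions at the genes' own starts were mostly shared, as were starts in general. Of 9 regions with a summit within 1000 bp of an annotated start of a member, 8 (88.9%) were in both lists and 1 was in WT only, against 84% in both lists over all regions at an annotated start. Of 49 regions in introns of the members, 32 (65.3%) were shared, 9 were WT-only and 8 were KO-only, against 53.4%, 23.3% and 23.3% over all intronic regions. Of 8 regions at a start of another gene inside the windows, 4 were shared, 4 were KO-only and 0 were WT-only, against 84%, 7.76% and 8.27% over all regions at a start. These are few regions. The 4 KO-only ones lay at the starts of 1600017P15Rik near Mecom, Arhgef16 near Prdm16, and Gm16141 and Gm16140 within Meis1, with pileups of 15, 14, 16 and 17.

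The number of bases covered by peaks over the 6 windows was 49458 (WT) and 51957 (KO), a KO to WT ratio of 1.05. The median ratio over 18247 protein-coding gene windows of the same construction was 0.992. Coverage was greater in KO at Mecom, Meis1, Hmga2 and Nkx2-3 and smaller at Prdm16 and Hlf, so 4 of 6 genes had more covered bases in KO, against 48.2% of all such windows. None of the 6 reached a 1.5-fold difference: 0 were higher, against 5.41% of windows, and 0 were lower, against 8.45%. That count depended on the peaks kept. With peaks of a -log10 q of at least 10, Mecom had a ratio of 1.94 (3816 and 7420 bases), Nkx2-3 1.91 (1421 and 2713) and Hlf 1.67 (2193 and 3664). The share of all windows at that limit is not given here. The limit bore on the lists unequally, as the median -log10 q over all peaks was 9.66 in WT and 11.9 in KO. With it, 8.31% of all regions were in WT only and 22.4% in KO only. At Hlf it left out the widest WT peak (2470 bp, -log10 q 9.81). With 10 kb on each side Nkx2-3 had 0.663 (2612 and 1733).

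**Figure D2:**
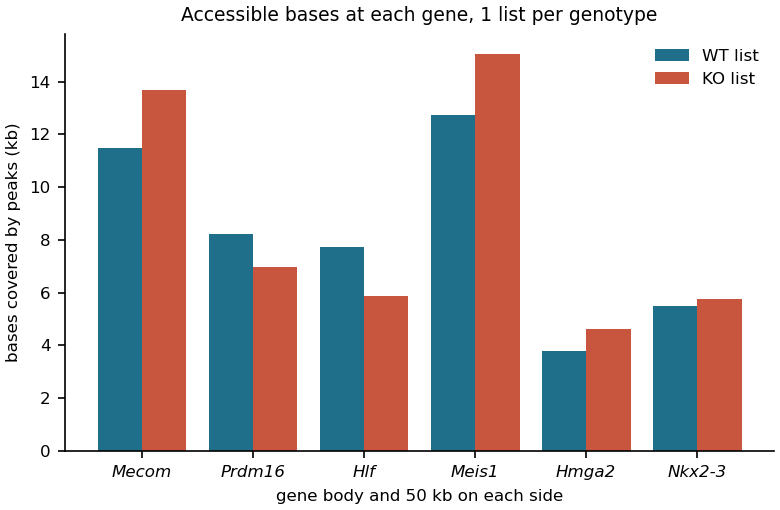
Bases covered by peaks (kb) in the window of each gene, as 1 bar for the WT list and 1 for the KO list, with no error bars because each genotype has 1 list. The KO bar is taller at Mecom, Meis1, Hmga2 and Nkx2-3, and the difference is largest in kb at Meis1 (12756 and 15066 bp, WT and KO) and Mecom (11487 and 13676 bp).

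In 51 of the 54 shared regions each list had a single peak, so that summit heights could be compared. The log2 KO to WT ratio of the pileups, each divided by its list's lowest background, had a median of 0.31 (SD 0.52, n = 51 regions), against 0.17 (SD 0.42) over all 28909 such regions. By fold enrichment over local background the medians were 0.27 and 0.26, so on that scale the members and all regions were nearly level. Relative to the median of all regions, 5 of the 51 (9.8%, 4.26% to 21%) were at least 1.5-fold higher in KO, against 7.63% of all, and 5 (9.8%) at least 1.5-fold lower, against 7.91%. The exact 95% binomial interval of the ratio lay above that median in 0 regions, against 1.91% of all, and below it in 1 (1.96%), against 1.54%. The summits of the lists lay over 100 bp apart in 15 regions (29.4%), against 25.5%.

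**Figure D3:**
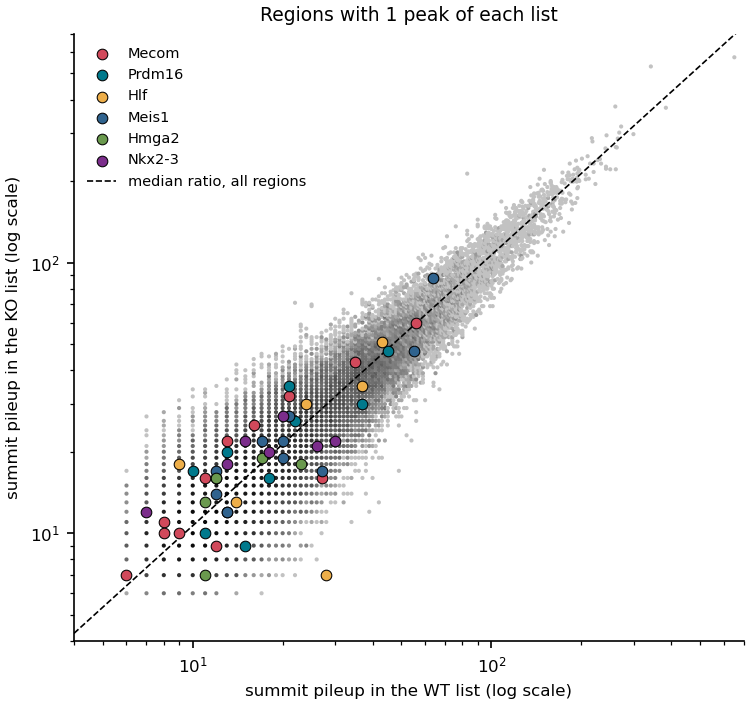
Summit pileup in the KO list against that in the WT list, both on log scales, for regions with 1 peak of each list: grey points are the pileup pairs of all 28909 regions (darker where more regions share a pair) and coloured points are the 51 regions at the 6 genes. The dashed line is the median ratio of all regions, and the point far below it is the region downstream of Hlf, with 28 in WT and 7 in KO.

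Mecom (ENSMUSG00000027684.16, chr3:29951296-30548008, minus strand, 597 kb) had 27 regions, of which 14 were shared, 7 were WT-only and 6 were KO-only. Of its regions 51.9% were shared, the lowest share of the 6 genes, against 64.8% of all regions. In introns of Mecom lay 19 of the 27, and 53.4% of all intronic regions were shared. Over all regions 18.1% were WT-only and 17.2% KO-only, which is the background for the genes below as well. Mecom had more peaks than 99.9% of protein-coding windows in both lists, but over its length the coverage was ordinary, with 16.5 covered bases per kb in WT and 19.6 in KO. The KO to WT ratio of covered bases was 1.19.

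No peak lay at the outermost annotated start of Mecom. The most prominent region had its summit 39.4 kb further in, near a start of a long form, with pileups of 56 in WT and 60 in KO (log2 ratio 0.19, 95% interval -0.36 to 0.74). The neighbouring intronic region, shown above, had 35 in WT and 43 in KO (log2 ratio 0.38). At the start used by the short Evi1-type form, 535 kb in, the WT pileup was 13 and the KO pileup 22. The log2 ratio of 0.84 was over 1.5-fold above the median of all regions, but its interval ran from -0.21 to 1.96. A WT-only region with a pileup of 11 lay near a further start, 536 kb in, which is also near that of the antisense gene Mecomos; without strand the pair cannot be told apart. The long-form and the short-form start were thus marked in both lists, and the intervals of both ratios held the median of all regions.

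Within the introns of Mecom the shared regions moved both ways. The region 70.8 kb from the 5′ end had the highest fold enrichment of the gene, with a pileup of 21 in WT and 32 in KO (log2 ratio 0.69). At 91.9 kb the order turned, with 27 in WT and 16 in KO (log2 ratio -0.67, -1.66 to 0.28), the lowest ratio at Mecom. The WT-only region with the highest fold enrichment, 314 kb in, had a pileup of 13 and the KO-only one, 443 kb in, had 14. Over the 14 shared regions the ratio lay above the median of all regions in 11, with a median of 0.40. Summed over them, the WT pileup was 247 and the KO pileup 289 (log2 ratio 0.31, 0.06 to 0.56). By fold enrichment over local background the median of the 14 was 0.27, against 0.26 over all regions.

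Prdm16 (ENSMUSG00000039410.16, chr4:154316125-154636873, minus strand, 321 kb) had 14 regions, of which 9 were shared, 3 were WT-only and 2 were KO-only. The covered bases were 8222 (WT) and 6968 (KO), a ratio of 0.847. At its start the pileup was 22 in WT and 26 in KO (log2 ratio 0.33, -0.55 to 1.22). The stronger peaks lay in introns. The strongest, 95.1 kb in, had 45 in WT and 47 in KO (log2 ratio 0.15), and its neighbour at 105 kb had 37 and 30 (-0.22). In both regions the counting interval of the ratio held the median of all regions.

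The intronic region of Prdm16 at 140 kb had 21 WT reads and 35 KO reads at its summit (log2 ratio 0.82, 0.00 to 1.68), over 1.5-fold above the median of all regions, and the region at 86.5 kb, at the start of Gm13133, had 10 and 17 (0.85, -0.36 to 2.14). The region at 246 kb had 15 in WT and 9 in KO, the lowest ratio of the gene (-0.65, -2.02 to 0.64). None of these 3 intervals left out the median of all regions. The WT-only region with the highest fold enrichment, 172 kb in, had a pileup of 13. The KO-only one, at the start of Arhgef16, had 14. Over the 9 shared regions the median log2 ratio was 0.15, close to that of all regions.

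Hlf (ENSMUSG00000003949.16, chr11:90336536-90390895, minus strand, 54.4 kb) had 9 regions, of which 6 were shared, 1 was WT-only and 2 were KO-only, and it held both the highest and the lowest ratio of the 51. At its start the pileup was 37 in WT and 35 in KO (log2 ratio 0.01, -0.70 to 0.71), and at an internal start 8.69 kb in it was 24 and 30 (0.41, -0.42 to 1.24). The strongest region lay 27.2 kb upstream, outside genes, where both lists placed the summit on the same base, with 43 in WT and 51 in KO (0.33, -0.28 to 0.95). At all 3 regions the counting interval of the ratio held the median of all regions.

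The region downstream of Hlf, chr11:90333123-90335592, stood apart. Its WT summit lay 1.42 kb past the 3′ end of the gene, outside annotated genes. The WT list had 1 peak of 2470 bp there with a summit pileup of 28, and the KO list had 1 peak of 390 bp with a pileup of 7. The summits were 347 bp apart. The log2 ratio was -1.91 (-3.35 to -0.69), the lowest of all 28909 regions, where the next lowest was -1.61, and it was the only one at the 6 genes with an interval that left out the median.

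Only 15.8% of this WT peak was covered by a KO peak. Among the 370 WT peaks at least 2000 bp wide this was the smallest share, and their median was 87.6%. This comparison of wide peaks was chosen after the values were seen. The local background was also unequal, 5.14 reads in WT and 1.23 in KO, and by the fold enrichment over it the lists were closer, at 4.72 (WT) and 3.59 (KO), or -0.40 on the log2 scale, a value that 4.37% of all regions equalled or fell below. In the sequence shown above, a GT repeat of 48 bp lies 33 bp from the WT summit, and its part in the result was not tested.

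**Figure D4:**
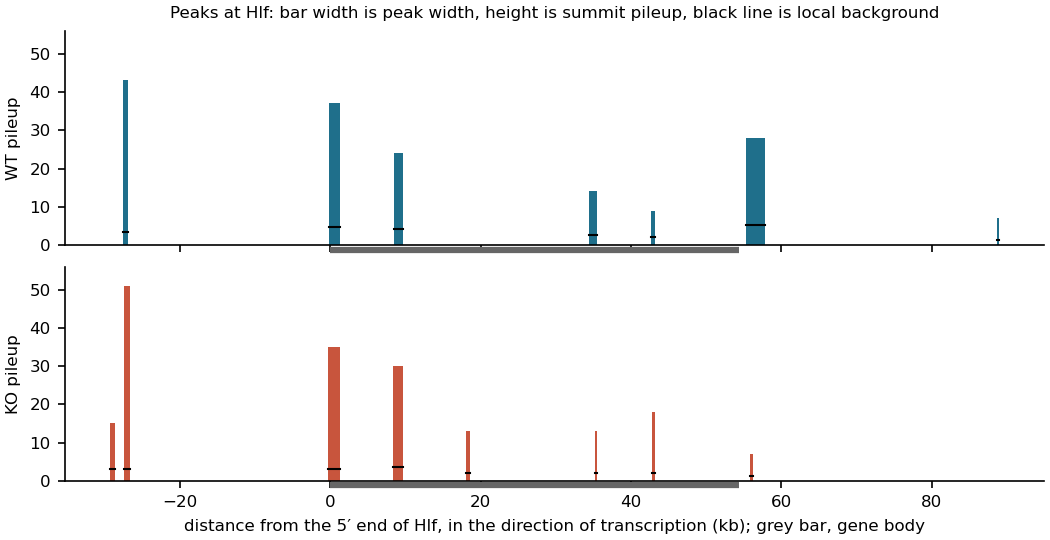
Peaks at Hlf in the WT list (top) and the KO list (bottom): the x axis is the distance from the 5′ end in kb, bar width is peak width, bar height is summit pileup in reads, the black line is the local background and the grey bar is the gene body. The peak just past the gene is 2470 bp wide with a pileup of 28 in WT and 390 bp wide with a pileup of 7 in KO, while the bars at the start (37 and 35) are alike.

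This region set the coverage of Hlf. The covered bases were 7726 in WT and 5891 in KO, a ratio of 0.762, and without the region they were 5256 and 5501, a ratio of 1.05. The highest ratio of the 51 was in an intron of Hlf 42.9 kb from the 5′ end, with a pileup of 9 in WT and 18 in KO (log2 ratio 1.09, -0.14 to 2.42). The remaining shared intronic region, 34.8 kb in, had 14 and 13. The KO-only peaks had pileups of 15, 29.1 kb upstream, and 13, 18.2 kb into the gene, and the WT-only peak, 34.4 kb past the gene, had 7.

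Meis1 (ENSMUSG00000020160.18, chr11:18879817-19018985, minus strand, 139 kb) was the most open of the 6 genes. It had 53.3 covered bases per kb in WT and 63.0 in KO, more than 93.8% and 96.6% of protein-coding windows. Of its 17 regions, 12 were shared, 1 was WT-only and 4 were KO-only, and the ratio of covered bases was 1.18. At its start the highest pileup was 64 in WT and 68 in KO (log2 ratio 0.17, -0.34 to 0.69). The WT list split this region into 2 peaks, and the KO list called a single one of 2649 bp.

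The strongest region of all 6 genes lay in an intron of Meis1, 48.9 kb from the 5′ end, where 64 WT reads and 88 KO reads were stacked. The ratio was 0.55 on the log2 scale (0.06 to 1.03), and the interval held the median of all regions. A second strong intronic region at 93.9 kb had 55 in WT and 47 in KO (-0.14, -0.73 to 0.45). Just past the 3′ end, a region with 51 in WT and 48 in KO was called as 1 peak in WT and 2 in KO. The strong regions of Meis1 were thus present in both lists, with heights that differed either way.

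The lowest ratio at Meis1 was at 69.9 kb, with a pileup of 27 in WT and 17 in KO (log2 ratio -0.58, -1.55 to 0.35), and the highest at 61.2 kb, with 12 and 17 (0.59, -0.56 to 1.79). The 4 KO-only regions had pileups of 9 to 17. The 2 with 16 and 17 lay at the starts of Gm16141 and Gm16140, 5.66 kb and 9.99 kb into Meis1, but their local background was high (4.80 and 4.47 reads) and their fold enrichment was only 2.93 and 3.29. The KO-only region with the highest fold enrichment, 3.86, lay 9.49 kb past the gene, and the single WT-only region, 82.6 kb in, had a pileup of 8.

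Hmga2 (ENSMUSG00000056758.14, chr10:120361275-120476469, minus strand, 115 kb) had the lowest maximum pileup of the 6 genes, 23 in WT and 19 in KO, although its median fold enrichment (5.47 and 5.42) was not the lowest. Of its 9 regions, 6 were shared, 1 was WT-only and 2 were KO-only, and the covered bases were 3788 in WT and 4614 in KO, a ratio of 1.22. At its start the highest pileup was 14 in WT and 12 in KO (log2 ratio -0.14, -1.38 to 1.08), with 1 peak in WT and 2 in KO. The strongest region by summed pileup, in an intron 43.4 kb in, had 23 in WT and 18 in KO (-0.27). The highest ratio was at 47.8 kb, with 12 and 16 (0.50), and the lowest at 91.4 kb, with 11 and 7 (-0.57, -2.17 to 0.93). The WT-only region, 1.66 kb upstream, had a pileup of 10, and the KO-only region with the higher fold enrichment, 84.8 kb in, had 12. At pileups this low an interval spans several-fold, and smaller differences were not detectable.

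Nkx2-3 (ENSMUSG00000044220.13, chr19:43612325-43615892, plus strand, 3.57 kb) is the shortest of the 6 genes, so most of its window is flanking DNA. It had 10 regions, of which 7 were shared, 2 were WT-only and 1 was KO-only. The covered bases were 5479 in WT and 5742 in KO, a ratio of 1.05. At its start the pileup was 26 in WT and 21 in KO (log2 ratio -0.22, -1.12 to 0.66). The strongest region by summed pileup, 12.4 kb upstream, was also lower in the KO list, with 30 and 22 (-0.36, -1.23 to 0.48). In the KO list alone the highest pileup was 27, at 32.7 kb. Apart from the region at 12.4 kb, the 4 upstream regions found in both lists had the higher value in KO. They had 18 and 20 at 1.67 kb (0.24), 13 and 18 at 11.1 kb (0.56), 20 and 27 at 32.7 kb (0.52), and 15 and 22 at 41.1 kb (0.64). The highest ratio was downstream at 36.2 kb, in an intron of AC138790.4, with 7 and 12 (0.86, -0.60 to 2.45). The 2 WT-only regions also lay upstream. The one with the higher fold enrichment, at 46.1 kb, had a pileup of 7 and the other, at 27.3 kb, had 8. The KO-only region, 47.6 kb downstream of the 5′ end, had 10. All 7 intervals held the median of all regions.

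**Figure D5:**
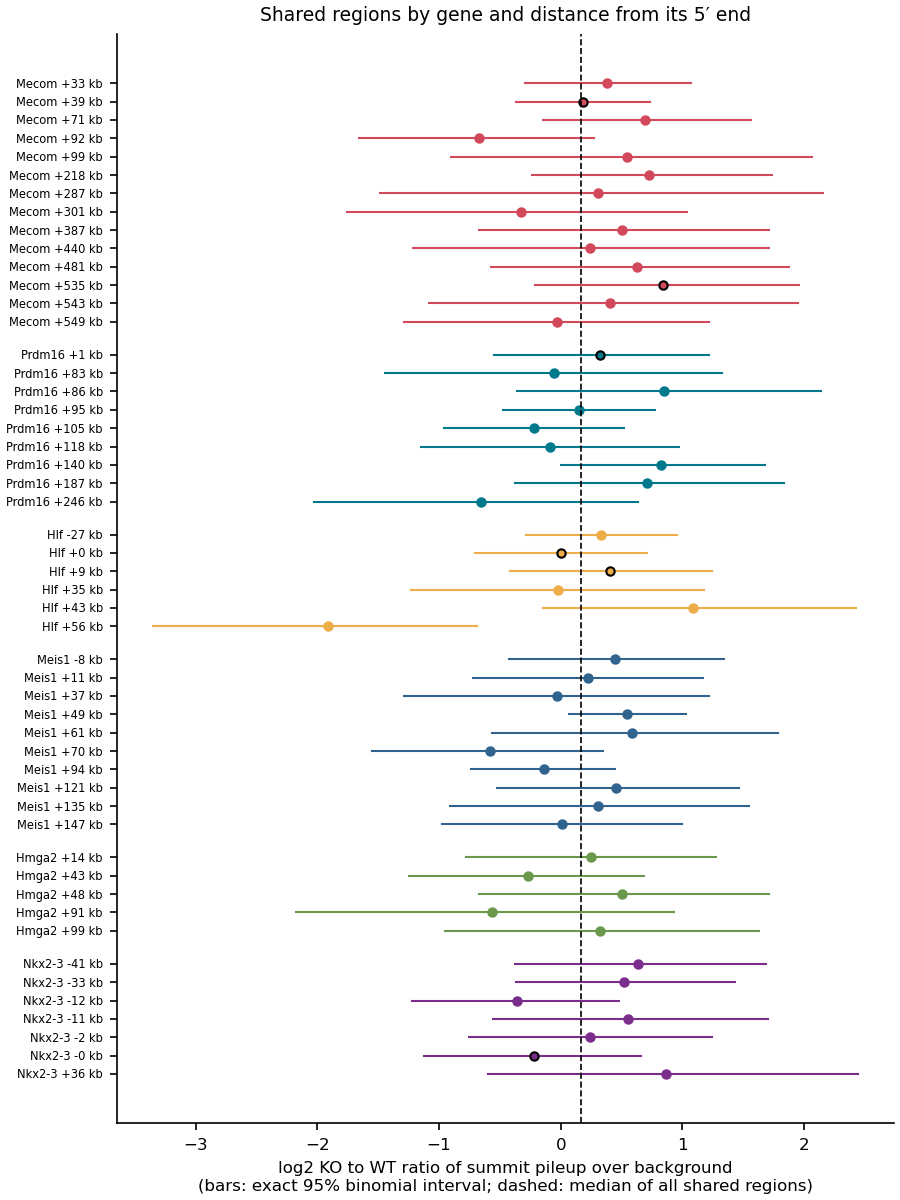
Log2 KO to WT ratio of summit pileup over background for the 51 regions with 1 peak of each list, 1 row per region, named by gene and distance from its 5′ end in kb: points are ratios, bars are exact 95% binomial intervals, black rims mark the members' own starts and the dashed line is the median of all regions, 0.167. The bar of the region downstream of Hlf, at -1.91, is the only one that does not reach the line.

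In order of the median log2 ratio, the genes were Nkx2-3 (0.52), Mecom (0.40), Meis1 (0.27), Hmga2 (0.25), Hlf (0.17) and Prdm16 (0.15), over 7, 14, 10, 5, 6 and 9 regions. This order was not stable and rested on few regions. Nkx2-3 fell to 0.01 with 10 kb on each side (2 regions) and to -0.22 with the gene body alone (1 region, at its start). Hmga2 fell to -0.27 with summits within 100 bp of each other (3 regions). The median crossed that of all regions under some alternatives at each gene but Mecom, where by fold enrichment over local background it was 0.27 against 0.26. By summed pileup the log2 ratios ran from 0.07 at Hmga2 (-0.42 to 0.55) to 0.31 at Mecom (0.06 to 0.56). The 6 intervals overlapped, and each held the value of 0.17 over all regions. The 6 starts with 1 peak of each list had a median of 0.26, the introns 0.24 over 32 regions, and the other places 0.45 over 13.

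The edge of the window decided which regions were counted. Just outside it, a region 52.9 kb upstream of Mecom had pileups of 86 in WT and 87 in KO and one 58.6 kb past Nkx2-3 had 101 and 96, both stronger in WT than any member. Just inside it, the outermost regions were a KO-only one 47.3 kb from Mecom with a pileup of 15 and a WT-only one 46.0 kb from Nkx2-3 with a pileup of 7.

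A list of 19 genes linked to the 6 factors held mainly partners and paralogs, and also Lin28b and Igf2bp2. Among the partners and paralogs were Hoxa9, a partner of Meis1, the Ctbp corepressors of Mecom and Prdm16, and Dbp and Tef, the relatives of Hlf. Of the 19 genes, 9 had more covered bases in KO and 10 had fewer. Over all protein-coding windows, 48.2% had more covered bases in KO. Pbx3 (3421 in WT and 1823 in KO) and Prdm1 (5850 and 3589), 2 of the 19 genes, were at least 1.5-fold lower, against 8.45% of such windows. As much higher were 0 of the 19, against 5.41%. Their windows held 118 regions, 42 of them (35.6%, against 35.2% of all) in 1 list only. Of 75 shared regions with 1 peak of each list, 4 (5.33%, against 7.63% of all) had a summit ratio 1.5-fold above the median of all regions and 10 (13.3%, against 7.91%) one as far below it. Hoxa9, a homeodomain factor, had 4139 covered bases in WT and 4226 in KO.

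Among 21 other regulators or markers of stem cells, 10 had more covered bases in KO and 11 had fewer. The share of all protein-coding windows with more was 48.2%. Zfx (1361 and 2172) was at least 1.5-fold higher, 1 of 21 genes, against 5.41% of such windows. Gfi1 (4994 and 2711) was at least 1.5-fold lower, also 1 of 21, against 8.45%. Their windows held 177 regions, 69 (39%, against 35.2% of all) in 1 list only. Of 105 shared regions with 1 peak of each list, 13 (12.4%, against 7.63%) were 1.5-fold above the median and 9 (8.57%, against 7.91%) as far below it. The windows of Hoxb4 and Hoxb5 hold the same regions. Gata2, a zinc finger factor needed for HSC survival, had 2784 and 3554 covered bases, and Runx1, the partner of Cbfb in definitive hematopoiesis, had 6690 and 6001.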

How the data were processed

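ATAC-seq libraries of sorted HSCs were made from 2 WT and 2 KO samples. Per the submitters' notes and the study's methods, the authors used Trim Galore for trimming, Bowtie2 for alignment to mm10, Picard to take out duplicate and mitochondrial reads, and MACS2, with no fragment model, for peaks. Versions, read depth and any shift or extension of reads are not given in the sources used here. Each genotype had 1 deposited peak list and 1 deposited list of summits.

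The deposited lists hold for each peak a summit fold enrichment over local background (a ratio), a -log10 p-value and a -log10 q-value, all as the authors' peak caller wrote them, a display score and the summit offset. The score and the summit lists repeat other columns and supported no result. From fold and -log10 p, each peak's whole-number pileup and local background were solved under the Poisson model of MACS2 (match within 0.001 for 100% of WT and 99.99% of KO peaks). Pileups were divided by the genome-wide background, the median of the 1000 lowest local backgrounds of the list. MACS2 takes the local background from reads around the peak where no control library is used, so a broad region raises its own background.

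The members and lists were chosen with earlier results of these data known, and some genes of the marker and related lists are not reported here. Genes and starts came from GENCODE M21, sequences from GRCm38.p6 (RefSeq). For each gene, the text names the regions at its starts, the strongest other region, the WT-only and KO-only regions of highest fold enrichment, the shared regions of highest and lowest ratio, and any whose interval left out the median of all; other regions named were chosen after their values were seen. Intervals are Wilson for shares and exact binomial for pileup ratios. The scripts were tested on simulated data and ran in Python 3.11.15 with scipy 1.17.1.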

Additional observations from a re-analysis of the deposited data

How the results depend on the processing

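No paired analysis was possible because both samples of a genotype share 1 list, and for the same reason no replicate could be left out. The share of regions in 1 list only was 37.2%, and it rose to 53.3% where peaks under a -log10 q of 10 were left out (30.7% of all regions) and to 48.3% (28.6% of all) among the 20000 peaks of each list with the highest -log10 p (14 of 29 regions). In each of these 16 and 14 regions the other list held a peak that missed the limit. The median log2 ratio of 0.308 became 0.395 with summits within 100 bp of each other (36 regions, 0.185 over all such regions), and the cause was not tested. The other 45 alternatives of the share, the covered bases and the median ratio stayed within the interval of the share or of the summed ratio, or within 1.5-fold of the covered ratio. The KO to WT ratio of covered bases over the 6 genes ran from 1.00 with 10 kb on each side to 1.40 with the limit of 10 on -log10 q. For all protein-coding windows the ratio is given here only without a limit on the peaks (median 0.992). At the limit of 10, 22.4% of all regions were in KO only and 8.31% in WT only. By gene the ratio of the members stayed above 1 under all 8 alternatives at Mecom and Meis1. It crossed 1 under 1 at Prdm16, 2 at Hlf, 1 at Hmga2 and 3 at Nkx2-3. The median log2 ratio less that of all regions crossed 0 under 3 of 13 alternatives at Prdm16, 1 of 13 at Hlf, 4 of 13 at Meis1, 4 of 11 at Hmga2 and 5 of 13 at Nkx2-3 (-0.389 to 0.37). At Mecom it did so under 0 of 13 but came close to 0 (0.01 to 0.286). With the 20000 strongest peaks of each list the ratio of covered bases was 1.76 at Mecom, and without peaks of a -log10 q under 5 it was 1.66 at Nkx2-3. At Hlf this ratio was 0.762, 1.05 without the downstream region and 1.67 with the limit of 10. That limit left out both peaks of the downstream region, the wide WT peak among them. At the internal start of Hlf it left out the WT peak but not the KO peak. The 1.67 thus rested on which peaks met the limit. Leaving out the starts of other genes, the downstream region or each gene in turn, and the limit of 100 bp, were chosen after seeing the data. The split of the stricter share by list was also chosen after its values were seen. Low pileups limit what can be seen: at 12 and 16 reads, as in the intron of Hmga2, the log2 interval ran from -0.67 to 1.71.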
